A study of Mus musculus with 6 samples.

Results

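The expression of 9 genes that carry dietary sugars across the gut epithelium, break down fructose or make glucose was examined in intestinal crypts of WT and Mtg16-/- mice. The genes were taken from a fixed list, Slc5a1, Slc2a2, Slc2a5, Khk, Tkfc, G6pc, Fbp1, Pck1 and Mlxipl, and all 9 were found among the 24736 gene symbols of the deposited table. RNA sequencing was performed on EDTA-isolated crypts from the whole length of the gut of male mice aged 12 weeks. There were 3 WT and 3 Mtg16-/- libraries, with no treatment besides the genotype in the labels. The series describes biological triplicates, which were taken here as 1 library per mouse. The sample labels call the knockout CRISPR-induced, whereas the study's methods describe Mtg16-/- mice obtained from another laboratory, and the exons removed are not given in the sources used here. MTG16 is a transcriptional co-repressor, and its knockout is not described as restricted to the epithelium.

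Glucose and galactose enter the enterocyte from the gut lumen through SGLT1 (Slc5a1), a sodium-coupled transporter, and fructose through GLUT5 (Slc2a5). GLUT2 (Slc2a2) carries all of these sugars across the basolateral side. Inside the cell, ketohexokinase (Khk) phosphorylates fructose, and triokinase (Tkfc) phosphorylates glyceraldehyde, a later product of the pathway. Phosphoenolpyruvate carboxykinase (Pck1), fructose-1,6-bisphosphatase (Fbp1) and glucose-6-phosphatase (G6pc) catalyze the committed steps of gluconeogenesis, with G6pc releasing free glucose. Mlxipl encodes ChREBP, a sugar-responsive transcription factor. These genes are known as genes of differentiated absorptive cells, with high expression in the proximal small intestine.

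The promoters of the 3 gluconeogenesis genes are shown first. Each sequence is the 250 bases upstream of the start site in RefSeq GRCm38.p6, 5′ to 3′ on the gene's strand. That of G6pc lies at chr11:101367466-101367715 on the plus strand, that of Pck1 at chr2:173152823-173153072 on the plus strand, and that of Fbp1 at chr13:62888283-62888532 on the minus strand. Capitals mark a TATA box, which was searched as TATAAA, and a core site of the factor HNF1, which was searched as GTTAAT, on either strand.
G6pc: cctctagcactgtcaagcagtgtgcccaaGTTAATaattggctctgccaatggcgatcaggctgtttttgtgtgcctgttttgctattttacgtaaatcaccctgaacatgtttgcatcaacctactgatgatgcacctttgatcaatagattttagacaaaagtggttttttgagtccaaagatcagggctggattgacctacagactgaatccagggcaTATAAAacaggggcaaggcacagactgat
Pck1: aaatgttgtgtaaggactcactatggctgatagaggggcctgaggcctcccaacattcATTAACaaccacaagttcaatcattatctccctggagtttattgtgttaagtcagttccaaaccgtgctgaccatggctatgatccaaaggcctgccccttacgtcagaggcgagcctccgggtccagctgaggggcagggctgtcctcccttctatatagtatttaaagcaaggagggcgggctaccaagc
Fbp1: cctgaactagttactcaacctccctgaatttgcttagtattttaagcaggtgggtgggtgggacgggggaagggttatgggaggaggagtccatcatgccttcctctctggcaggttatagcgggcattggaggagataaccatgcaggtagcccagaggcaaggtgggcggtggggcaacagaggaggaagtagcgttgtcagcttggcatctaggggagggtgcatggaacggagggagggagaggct
G6pc held GTTAAT with its first base at -221 from the start site and TATAAA at -29. Pck1 held the HNF1 site at -192 on the opposite strand, and Fbp1 held neither. The last bases of the Fbp1 sequence lie in the transcribed stretch of another isoform. Windows of 300 bases, which reach 50 bases past the start site, were searched on both strands for all 9 genes, 10 windows in all because Mlxipl has a second start site. GTTAAT was found in 3 of the 10, those of Khk, G6pc and Pck1, and in 7.10% of 32851 mouse promoter windows. CACGTG, the E-box that forms part of the ChREBP response element, was found in Slc5a1, Khk and one window of Mlxipl, and in 7.15% of all windows. The broader E-box CANNTG, bound by E proteins, includes CACGTG and was found in 9 of the 10 windows and in 72.3% of all windows, and G6pc was the gene whose window lacked it. AAAGTCC (HNF4) was found in Slc5a1 and in 4.21% of all windows. TTTATGG (CDX2), TGACGTC (CREB) and TGTTTAC (FOX factors) were found in none of the 10, and in 2.75%, 3.21% and 3.65% of all windows. These matches describe letters in the sequence, and binding was not tested. Slc5a1, Slc2a2, Slc2a5, Tkfc and Mlxipl held no GTTAAT and, like Khk, G6pc and Pck1, had a lower mean in Mtg16-/-. A link between these matches and the direction of a difference was not tested. Only the exact letters given were searched, so variants of a site were not counted.

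Levels are given as TPM, a share of all transcripts that is corrected for transcript length and has the same sum in each library. The read number behind a TPM value is unknown. Differences between genotypes are log2 fold changes of TPM + 1, Mtg16-/- against WT, from limma fitted on 12268 genes whose mean TPM reached 1, and a gene was called at an adjusted p under 0.1. All 9 genes passed this filter with means above it in both groups. The gene that encodes MTG16, Cbfa2t3, had a TPM of 3.67 to 6.69 in WT and of 3.23 to 6.43 in Mtg16-/- (adjusted p = 0.937 from limma), so its gene-level value did not separate the genotypes, and each direction below rests on the labels. The crypt markers Olfm4 (647 to 1611 TPM) and Lgr5 (6.02 to 20.2 TPM) were detected in all 6 libraries. Stromal Col1a1 was at most 1.32 TPM, the immune marker Ptprc was between 4.91 and 17.1 TPM, and the colonic gene Hoxb13 was listed at 0 in every library.

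In Mtg16-/- crypts 8 of the 9 genes had a lower mean than in WT and 1, Fbp1, had a higher mean. None of the 9 was called by limma, with adjusted p between 0.199 and 0.429, where 0.0326% of all tested genes were called. At an unadjusted p under 0.05 stood 7 of the 9, against 14.6% of all tested genes. Of these, 6 were lower and 1 was higher, against 8.05% and 6.53% of all tested genes. For 4 of the 9, against 21.0% of all tested genes, WT and Mtg16-/- values did not overlap. Of these, 3 were lower (Slc2a2, G6pc and Mlxipl) and 1 was higher (Fbp1), against 11.1% and 9.94% of all tested genes. When limma was run with array weights, which give more variable libraries less weight, 4 of the 9 were called (Slc2a2, G6pc, Fbp1 and Pck1), where 6.97% of all tested genes were called. The median log2 fold change of the 9 genes was -0.67, and that of all tested genes was -0.03.

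**Figure D1:**
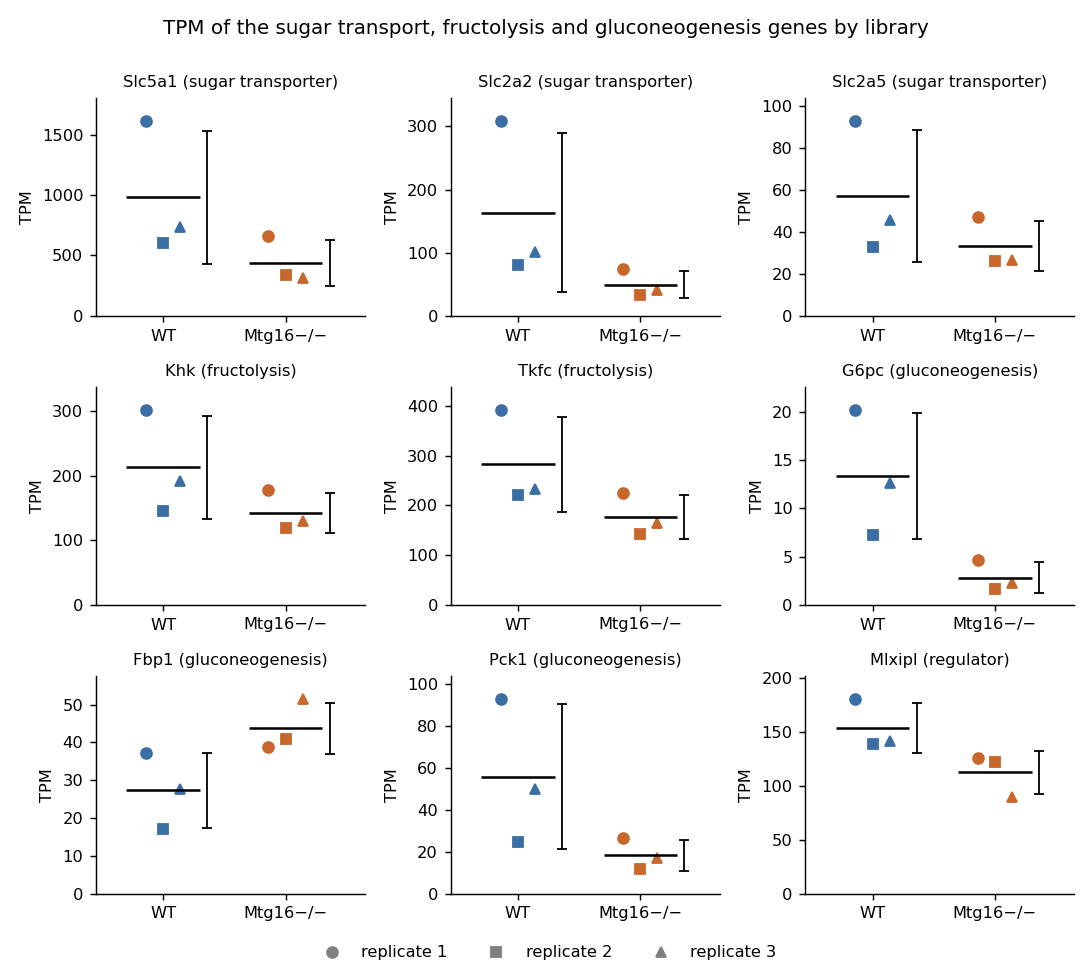
TPM of each gene (vertical axes, each from 0) in the 3 WT (blue) and 3 Mtg16-/- (orange) libraries; symbols mark the replicate number, horizontal lines the means and bars to the right ± 1 SD (n = 3). WT replicate 1 is the highest library in 8 of the 9 panels, and in Fbp1 all Mtg16-/- libraries lie above all WT libraries.

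Among the transporters, Slc5a1 (chromosome 5, 33104219 to 33162699) reached a TPM of 1610, 602 and 733 in WT, and of 659, 340 and 316 in Mtg16-/-. WT replicate 1 stood far above the other libraries, and Mtg16-/- replicate 1 lay above WT replicate 2, so the groups overlapped. The means were 982 ± 548 and 438 ± 191 (SD, n = 3 each), a 2.24-fold lower mean in Mtg16-/-. The log2 fold change was -1.11 (standard error 0.41, 95% confidence interval -2.05 to -0.16, limma adjusted p = 0.305).

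Slc2a2 (chromosome 3, 28697903 to 28728361) had a TPM of 308, 81.3 and 101 in WT and of 74.1, 33.6 and 41.0 in Mtg16-/-. Every Mtg16-/- library lay below every WT library, with a narrow gap between Mtg16-/- replicate 1 and WT replicate 2. On the log2 scale the difference was -1.52 (standard error 0.49, 95% confidence interval -2.66 to -0.38, limma adjusted p = 0.279). The means, 164 ± 126 and 49.6 ± 21.6 TPM (SD, n = 3 each), differed 3.30-fold.

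Slc2a5 (chromosome 4, 150119344 to 150144168) had a TPM of 92.9, 32.7 and 46.0 in WT and of 47.0, 26.4 and 26.8 in Mtg16-/-. The groups overlapped, since Mtg16-/- replicate 1 lay above WT replicates 2 and 3. It had a log2 fold change of -0.67 (standard error 0.38, 95% confidence interval -1.55 to 0.20, limma adjusted p = 0.429), with means of 57.2 ± 31.6 and 33.4 ± 11.8 TPM (SD, n = 3 each).

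The transporters were also set against each other within each library, where a shared gain or loss of both transcripts cancels. Slc2a5 amounted to 0.301, 0.402 and 0.455 of Slc2a2 in the WT libraries and to 0.635, 0.783 and 0.654 in the Mtg16-/- libraries. Fructose transporter transcripts were thus more abundant relative to GLUT2 in all Mtg16-/- libraries, by 0.85 on the log2 scale. Slc5a1 was 5.22, 7.40 and 7.24 times Slc2a2 in WT and 8.89, 10.1 and 7.71 times in Mtg16-/-, a difference of 0.44 on the log2 scale, again without overlap. Both ratios had p = 0.1 in a two-sided exact permutation test, the smallest that 3 libraries against 3 allow. After adjustment over the 5 ratios tested it was 0.125.

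Of the fructolysis genes, Khk (chromosome 5, 30921436 to 30931248) had a TPM of 301, 145 and 192 in WT and of 178, 118 and 130 in Mtg16-/-. The groups overlapped at Mtg16-/- replicate 1. The log2 fold change was -0.54 (standard error 0.27, 95% confidence interval -1.16 to 0.09, limma adjusted p = 0.398), with means of 213 ± 80.1 and 142 ± 31.5 TPM (SD, n = 3 each).

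Tkfc (chromosome 19, 10592197 to 10605482) had a TPM of 392, 222 and 234 in WT and of 226, 142 and 164 in Mtg16-/-. Its groups overlapped by the small margin between Mtg16-/- replicate 1 and WT replicate 2. On the log2 scale the difference was -0.65 (standard error 0.26, 95% confidence interval -1.24 to -0.06, limma adjusted p = 0.314). The means were 282 ± 94.8 and 177 ± 43.6 TPM (SD, n = 3 each). Tkfc overlaps Cyb561a3, which had a TPM of 10.9 to 15.3 over the 6 libraries. Whether the counting used strand is not given in the sources used here.

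The Khk to Tkfc ratio was 0.769, 0.654 and 0.822 in WT and 0.788, 0.836 and 0.795 in Mtg16-/-. The groups overlapped, and the difference of 0.11 on the log2 scale had p = 0.4 (two-sided exact permutation test, also 0.4 after adjustment over the 5 ratios).

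Of the gluconeogenesis genes, G6pc (chromosome 11, 101367716 to 101377903) was the least abundant of the 9 genes and had the largest log2 fold change among them at a pseudocount of 1. Its TPM was 20.2, 7.27 and 12.6 in WT and 4.62, 1.61 and 2.25 in Mtg16-/-. All Mtg16-/- libraries lay below all WT libraries, and the mean, 13.4 ± 6.49 TPM in WT and 2.83 ± 1.59 in Mtg16-/- (SD, n = 3 each), was 4.72-fold lower. The log2 fold change was -1.88 (standard error 0.39, 95% confidence interval -2.78 to -0.98, limma adjusted p = 0.199), at position 25 from the lowest of the 12268 tested genes. At these low TPM values the fold change depends on the pseudocount, with -2.22 for TPM + 0.1 and -1.19 for TPM + 5, where Slc2a2 (-1.45) and Pck1 (-1.27) were lower than G6pc.

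Pck1 (chromosome 2, 173153073 to 173159274) had a TPM of 92.7, 24.5 and 49.8 in WT and of 26.4, 11.6 and 16.8 in Mtg16-/-. Mtg16-/- replicate 1 lay just above WT replicate 2, and the other libraries were separated. The mean of 55.7 ± 34.4 TPM in WT was 3.05-fold above that of 18.3 ± 7.47 TPM in Mtg16-/- (SD, n = 3 each). The log2 fold change was -1.43 (standard error 0.46, 95% confidence interval -2.50 to -0.37, limma adjusted p = 0.279).

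Fbp1 (chromosome 13, 62864753 to 62888298) differed in the other direction, with a TPM of 37.1, 17.1 and 27.7 in WT and of 38.9, 40.9 and 51.5 in Mtg16-/-. All Mtg16-/- libraries lay above all WT libraries, although Mtg16-/- replicate 1 exceeded WT replicate 1 by a small margin. The mean was 27.3 ± 10.0 TPM in WT and 43.8 ± 6.75 in Mtg16-/- (SD, n = 3 each), 1.60-fold higher, and the log2 fold change was 0.72 (standard error 0.26, 95% confidence interval 0.11 to 1.32, limma adjusted p = 0.300). The second fructose-bisphosphatase gene, Fbp2, was more abundant than Fbp1 in every library, with a TPM of 346, 234 and 262 in WT and of 302, 230 and 279 in Mtg16-/-. Its groups overlapped, with a log2 fold change of -0.04 and a standard error of 0.18 (limma adjusted p = 0.927).

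The G6pc to Fbp1 ratio was 0.543, 0.424 and 0.456 in WT and 0.119, 0.0393 and 0.0437 in Mtg16-/-. This was the largest difference of the 5 ratios, -3.0 on the log2 scale, without overlap (two-sided exact permutation test, p = 0.1, adjusted p = 0.125). Because G6pc was lower and Fbp1 higher, each without overlap, this ratio had to separate the groups, and its p adds no support. The ratios were taken on TPM without a pseudocount, and G6pc was at only 1.61 to 4.62 TPM in Mtg16-/-. The G6pc to Pck1 ratio was 0.218, 0.296 and 0.253 in WT and 0.175, 0.138 and 0.134 in Mtg16-/-. G6pc was thus lower also relative to Pck1 in all Mtg16-/- libraries, by 0.78 on the log2 scale (two-sided exact permutation test, p = 0.1, adjusted p = 0.125).

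Mlxipl (chromosome 5, 135089890 to 135139768) had a TPM of 180, 139 and 141 in WT and of 126, 122 and 89.6 in Mtg16-/-. Of the 9 genes it varied least among the WT libraries, and its groups did not overlap. The means were 153 ± 23.3 and 113 ± 20.0 TPM (SD, n = 3 each). On the log2 scale the difference was -0.45 (standard error 0.17, 95% confidence interval -0.85 to -0.04, limma adjusted p = 0.312).

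**Figure D2:**
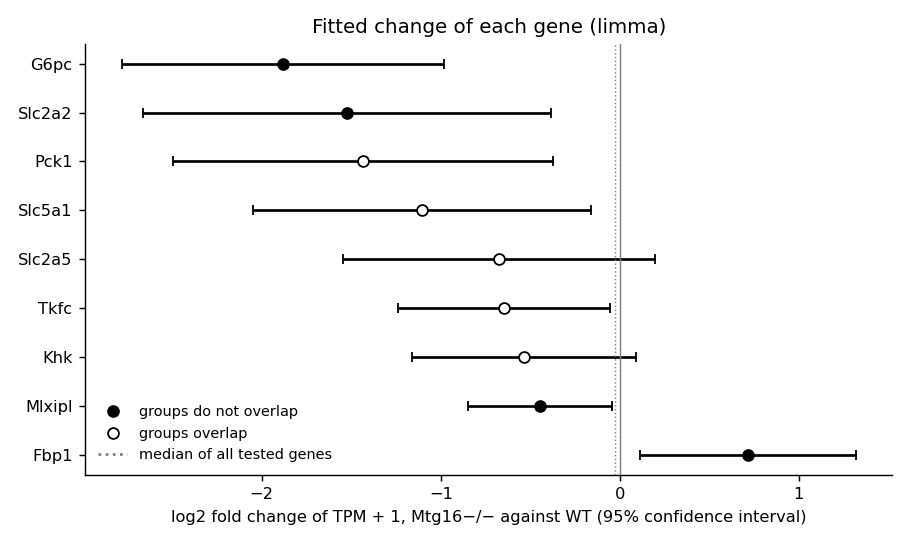
Log2 fold change of TPM + 1 (horizontal axis) of each gene with its 95% confidence interval from limma; filled points mark genes whose groups did not overlap and the dotted line the median of all tested genes, -0.03. Estimates run from -1.88 (G6pc) to 0.72 (Fbp1), and the intervals of Slc2a5 and Khk include 0.

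In WT crypts the order of mean TPM was Slc5a1, Tkfc, Khk, Slc2a2, Mlxipl, Slc2a5, Pck1, Fbp1 and G6pc. Of these neighbors, Slc5a1 was separated from Tkfc, and Mlxipl from Slc2a5, with no overlap of their ranges over the WT libraries, while the ranges of the other neighboring genes overlapped. In Mtg16-/- crypts the order was Slc5a1, Tkfc, Khk, Mlxipl, Slc2a2, Fbp1, Slc2a5, Pck1 and G6pc. Here the ranges were separated between Slc5a1 and Tkfc, between Mlxipl and Slc2a2, and between Pck1 and G6pc. A pair noticed after the values were seen was Pck1 and Fbp1, since Pck1 was above Fbp1 in 3 of 3 WT libraries and below it in 3 of 3 Mtg16-/- libraries.

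The spread among WT libraries was large for most of these genes. WT replicate 1 held the highest TPM in 8 genes, and its value was 2.67 times that of WT replicate 2 for Slc5a1, 3.79 times for Slc2a2, 3.78 times for Pck1 and 2.78 times for G6pc. In 7 of the 9 genes, all but G6pc and Mlxipl, this ratio between 2 WT libraries exceeded the ratio between the group means. Without WT replicate 1 the log2 fold change was -0.68 for Slc5a1, -0.94 for Slc2a2, -0.26 for Slc2a5, -0.25 for Khk, -0.39 for Tkfc, -1.55 for G6pc, 0.96 for Fbp1, -0.98 for Pck1 and -0.33 for Mlxipl. Without WT replicate 2 that of Fbp1 was 0.43, and without Mtg16-/- replicate 3 that of Mlxipl was -0.29. The direction of each of the 9 genes was kept with any 1 library left out.

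The count of genes at an unadjusted p under 0.05, 7 of 9, was 4 without WT replicate 1 (11.5% of all tested genes), 8 without WT replicate 2 (14.1%), 7 without WT replicate 3 (12.0%), 9 without Mtg16-/- replicate 1 (16.5%), 2 without Mtg16-/- replicate 2 (8.31%) and 2 without Mtg16-/- replicate 3 (8.66%). The count without overlap, 4 of 9, became 8 without WT replicate 2 (32.5% of all tested genes) and 9 without Mtg16-/- replicate 1 (38.7%). It was 4 without WT replicate 1 (31.4%), WT replicate 3 (29.6%), Mtg16-/- replicate 2 (27.7%) or Mtg16-/- replicate 3 (28.2%).

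**Figure D3:**
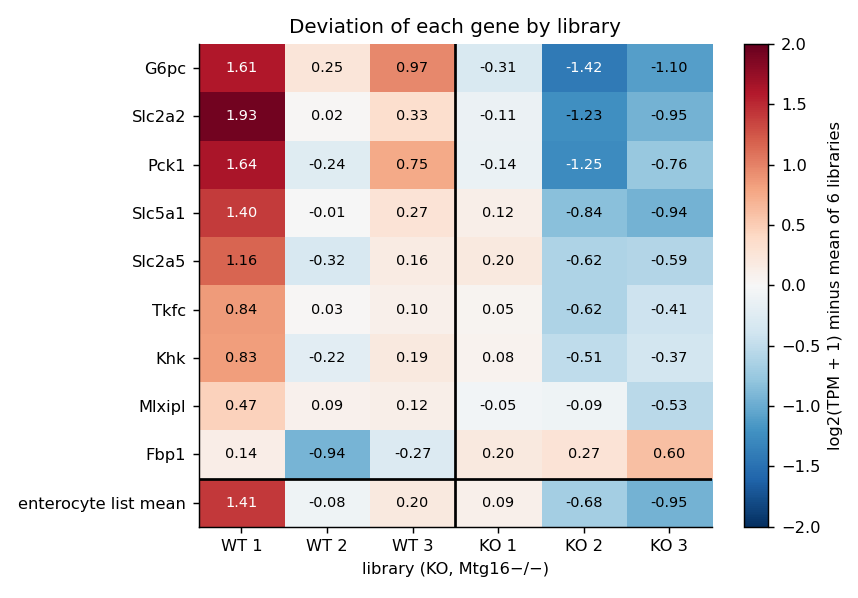
Log2(TPM + 1) of each gene in each library (columns) minus the gene's mean over the 6 libraries, red above and blue below the mean; the lowest line gives the mean of 16 enterocyte markers treated the same way. WT replicate 1 is above the mean in every line, and Fbp1 is the one gene above its mean in Mtg16-/- replicates 2 and 3 (0.27 and 0.60).

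Markers of enterocytes differed between the same libraries. All 16 enterocyte markers, among them Vil1, Alpi, Fabp1, Apoa4 and Sis, had a lower mean log2 value in Mtg16-/-, with a median log2 fold change of -1.02. Of these, 7 were at an unadjusted p under 0.05, where 8.05% of all tested genes were lower at this threshold, and none was called by limma. Their summed TPM was 39510, 13894 and 17033 in WT and 14458, 8291 and 7159 in Mtg16-/-, so WT replicate 1 stood apart here as well. The 6 tested markers of the proximal small intestine, such as Pdx1, Gata4 and Ada, were lower too, with a median of -0.71. Of these, 4 were at an unadjusted p under 0.05, against the same 8.05% of all tested genes. All 7 Paneth cell markers were higher, with a median of 0.96, and their summed TPM was 9024 to 19658 in WT and 24075 to 29548 in Mtg16-/-. All 8 enteroendocrine markers were higher (median 0.49), 7 of 8 stem and progenitor markers were higher (0.27), 5 of 7 goblet cell markers were lower (-0.43), all 4 tuft cell markers were lower (-0.50) and 6 of 7 immune markers were lower (-0.38). Of the regional lists, 3 of 5 ileal markers were lower (-0.24) and the 3 tested colonic markers were higher (0.24), and 2 of 3 tested stromal markers were higher (0.15). The part of cell composition, gut region or single libraries in the values of the sugar genes was not tested, and in bulk crypts fewer cells of a type and less RNA per cell cannot be told apart.

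To place the 9 genes beside the absorptive cells of the same library, the mean log2(TPM + 1) of the 16 enterocyte markers was subtracted from that of each gene. The marker mean itself was 10.42, 8.94 and 9.22 in WT and 9.11, 8.34 and 8.07 in Mtg16-/-. On this relative scale Slc5a1 was 0.23, 0.30 and 0.30 in WT and 0.26, 0.08 and 0.24 in Mtg16-/-, with overlapping groups. The difference was -0.09, so the change of Slc5a1 was close to that of the marker mean.

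G6pc remained lower in all Mtg16-/- libraries on this scale, with -6.02, -5.89 and -5.45 in WT and -6.62, -6.95 and -6.37 in Mtg16-/-, a difference of -0.86. Slc2a2 also remained lower without overlap, by -0.50. Pck1 differed by -0.41 with overlapping groups. In contrast, Slc2a5 was higher without overlap by 0.35, and Fbp1 by 1.74. Khk (0.49), Tkfc (0.37) and Mlxipl (0.57) were higher on average, with overlapping groups. The marker mean itself differed by -1.02, so a gene with unchanged TPM would be higher on this scale. For Slc2a5, Khk, Tkfc and Mlxipl, whose mean TPM was lower in Mtg16-/-, higher here means lowered less than the marker mean. The share of all tested genes without overlap on this scale was not computed. The log2 fold changes of the single enterocyte markers ran from -1.99 to -0.15. Those of all the sugar genes but Fbp1 lay within this range, so the relative values depend on the markers chosen. They are a description and carry no test.

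**Figure D4:**
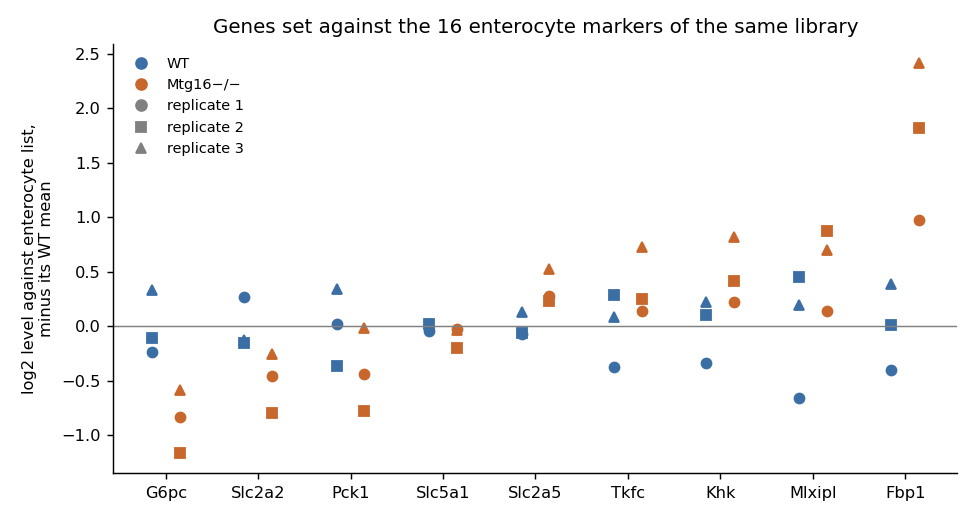
Log2 level of each gene minus the mean log2 level of 16 enterocyte markers in the same library, shown as the deviation from the gene's WT mean (vertical axis), for WT (blue) and Mtg16-/- (orange) libraries. G6pc and Slc2a2 lie lower and Slc2a5 and Fbp1 higher in all Mtg16-/- libraries, and Slc5a1 differs by -0.09. The marker mean itself was lower in Mtg16-/-, so a gene with unchanged TPM would lie higher.

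Other genes of sugar handling were followed in 8 lists of 116 genes, of which 102 were tested and 14 had a mean TPM below 1. None of the 102 was called by limma (lowest adjusted p = 0.171). At an unadjusted p under 0.05, 25 were lower and 7 higher, against 8.05% and 6.53% of all tested genes. These shares also belong beside the counts of each list below, and 21.0% of all tested genes had groups without overlap. Of the 102, 68 (66.7%) had a log2 fold change below 0, against 53.6% of all tested genes. Of the 11 other sugar transporters tested, 8 were lower and 3 higher, with a median log2 fold change of -0.36. Slc5a11, a sodium-coupled inositol transporter, had a TPM of 87.7, 29.9 and 36.8 in WT and of 39.8, 17.9 and 17.5 in Mtg16-/-. Slc5a4a, a member of the SGLT family, had a log2 fold change of -0.77 and Slc50a1, a sugar transporter of the SWEET family, one of -0.09. Slc5a4a has a close paralog, Slc5a4b, with which reads may have been shared. Slc2a3, Slc2a4, Slc2a6, Slc2a12, Slc5a2 and Slc5a10 were below the filter.

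Of the 7 other fructose and polyol genes tested, 4 were lower and 3 higher (median -0.04). Abundant genes of this list were Sord, sorbitol dehydrogenase, which makes fructose from sorbitol, with a log2 fold change of 0.36 (limma adjusted p = 0.379), and Aldh2 with -0.04. Akr1b3, aldose reductase, was listed at 0 in WT replicates 1 and 2 and at 9.13, 7.97, 5.44 and 13.7 TPM in the other libraries, so its fitted log2 fold change of 2.13, which is included in these counts and medians, depends on the pseudocount.

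Of the 14 other gluconeogenesis genes, which include the shuttle enzymes that supply the pathway, 10 were lower and 4 higher (median -0.31), 6 of the lower ones at an unadjusted p under 0.05. The mitochondrial malate dehydrogenase Mdh2 had a TPM of 1500, 914 and 1193 in WT and of 801, 657 and 755 in Mtg16-/-, without overlap. It had a log2 fold change of -0.68 (limma adjusted p = 0.269), and that of cytosolic Mdh1 was -0.37 (0.457). The next 3 genes of this list were singled out after their values were seen. Pyruvate carboxylase, Pcx, the enzyme before Pck1, had a TPM of 25.0, 12.6 and 16.6 in WT and of 8.79, 8.27 and 5.44 in Mtg16-/-, a log2 fold change of -1.14 without overlap (limma adjusted p = 0.225). Slc37a4, which carries glucose 6-phosphate to G6pc, had one of -0.29 and the ubiquitous glucose-6-phosphatase G6pc3 one of 0.29, both with overlapping groups.

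Of the 22 tested glycolysis genes, 18 were lower and 4 higher (median -0.33), 9 of the lower ones and 1 of the higher ones at an unadjusted p under 0.05. The most abundant were Ldha (lactate dehydrogenase, -0.46), Tpi1 (triosephosphate isomerase, -0.34) and Gapdh (-0.59), each without overlap, with limma adjusted p between 0.279 and 0.348. Of 8 galactose genes, 6 were lower and 2 higher (median -0.13). Galm and Pgm1 had log2 fold changes of -0.16 and -0.58. All 4 brush border enzymes that digest sugars were lower (median -0.96). Mgam, Sis and Lct had log2 fold changes of -0.67, -0.65 and -1.25 with overlapping groups. The remaining enzyme, trehalase (Treh), was named after its values were seen and had a TPM of 287, 96.7 and 116 in WT and of 88.5, 44.9 and 44.3 in Mtg16-/-, without overlap and with a log2 fold change of -1.38. Sis and Lct are also among the enterocyte markers used here.

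Of 14 tested ChREBP partners and target genes, 10 were lower and 4 higher (median -0.17), 5 of the lower ones at an unadjusted p under 0.05. Gpd1, glycerol-3-phosphate dehydrogenase, had a log2 fold change of -0.89, Txnip, a sugar-induced ChREBP target, one of 0.24 and Pklr, liver-type pyruvate kinase, one of -0.60. Gpd1 and Pklr are counted once more in the gluconeogenesis and the glycolysis list. Among 24 transcription factors and coactivators known to act on such genes, 14 were higher and 10 lower (median 0.07), 3 of the higher ones and 1 lower one at an unadjusted p under 0.05. Hnf4a had a TPM of 523 to 615 over the 6 libraries and a log2 fold change of -0.07 (limma adjusted p = 0.834). Klf5 had one of 0.15 without overlap, and the intestinal factor Cdx2 one of 0.45 without overlap (137, 168 and 176 TPM in WT, and 224, 216 and 214 in Mtg16-/-, limma adjusted p = 0.265).

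**Figure D5:**
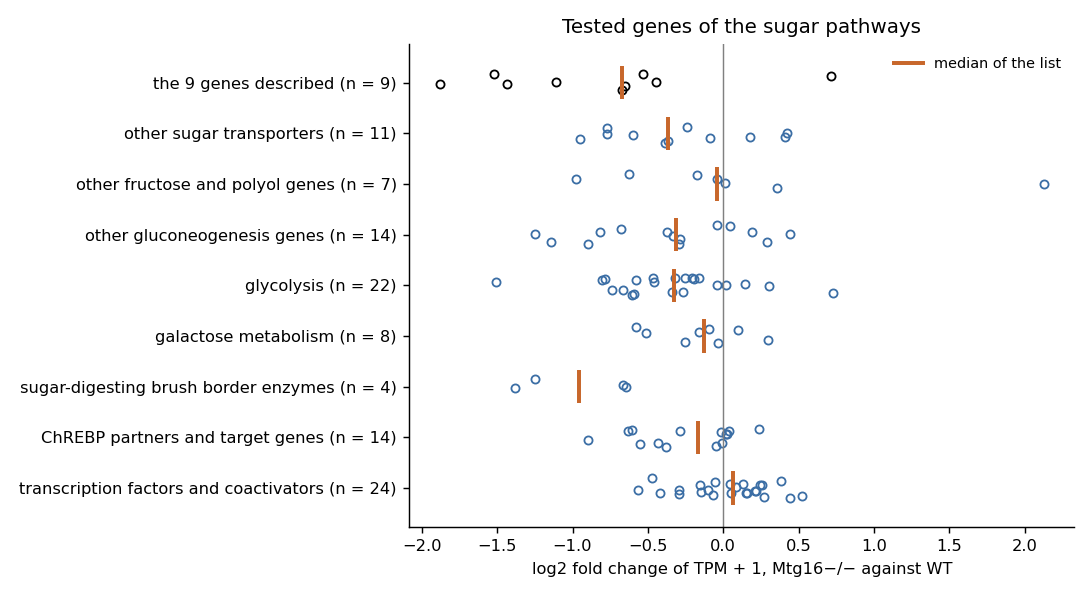
Log2 fold change of TPM + 1 (horizontal axis) of each tested gene in the 9 described genes (black) and in 8 lists of related genes (blue), with the median of each list in orange; the point at 2.13 is Akr1b3, which was listed at 0 in 2 WT libraries. Medians run from -0.96 for the brush border enzymes to 0.07 for transcription factors and coactivators.

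The tested genes whose profile over the 6 libraries was most like the mean of the 9 genes were Egln3, Tsku, Fbln1, Bco2 and Ormdl3. The likeness was the root-mean-square distance between log2(TPM + 1) profiles centered over the 6 libraries, which was 0.0655 for Egln3 and 0.0795 for Ormdl3. Among the 9 genes themselves it ran from 0.123 for Slc2a5 to 0.541 for G6pc and 0.839 for Fbp1. Egln3 had a TPM of 28.5, 11.1 and 15.5 in WT and of 14.2, 7.15 and 8.25 in Mtg16-/-.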

How the data were processed

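RNA sequencing libraries were made by the authors from ribosome-depleted total RNA (200 ng, 14 PCR cycles) of 6 crypt isolates (2 mM EDTA, 30 min). The submitters' processing notes name cutadapt 1.9.1, STAR 2.5.2a, RSEM 1.3.0 and DESeq2 1.12.3 with build mm10. The authors deposited TPM values per gene symbol, rounded to 2 decimals. TPM keeps no read number, so depth is unknown, no counting interval is given, and the authors' count test was not run here. TPM is a share of each library, so a large change in abundant transcripts shifts all others.

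Values were transformed as log2(TPM + 1), and 12268 genes whose mean TPM over the 6 libraries reached 1 were fitted with limma 3.58.1 (lmFit, eBayes with trend, R 4.3.3), comparing genotypes with no covariate, and p was adjusted by Benjamini-Hochberg over all tested genes. Ratios between genes were compared by two-sided exact permutation tests (scipy 1.17.1). The calculation was tested on simulated data. The series' design text gives biological triplicates, which were taken as 3 separate mice per group.

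Genes were named by rule: the 9 genes, Cbfa2t3, the 3 most abundant genes of each pathway list, and the 5 genes with the closest profile. Some genes that this rule names are not reported here. The genes, lists and ratios were chosen with earlier results of these data known. Alternatives were pseudocounts of 0.1 and 5, no filter, a filter at a mean TPM of 5, median-ratio and quantile scaling, no trend, robust moderation, array weights, a replicate block, a threshold of 0.05 and each library left out. Promoter sequences and positions are from RefSeq GRCm38.p6, which is the build mm10, and all 9 symbols matched.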

Additional observations from a re-analysis of the deposited data

How the results depend on the processing

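All 9 genes kept their direction in each of the 16 alternatives in which a fold change was fitted. None of the 9 genes and none of the 102 pathway genes was called in any alternative except array weights and the replicate block. With array weights 855 genes were called over all tested genes (6.97%), with 4 of the 9 genes (Slc2a2, G6pc, Fbp1 and Pck1) and 21 pathway genes among them. With the replicate block, 1201 genes were called (9.79%), with 9 of the 9 genes and 32 pathway genes. The replicate numbers were not taken as a pairing, because the replicate labels name none. After subtraction of each group mean, libraries of the same number correlated across genes with r = 0.429, 0.0753 and 0.237. Libraries of unlike number had r from -0.331 to 0.198. WT replicates 1 and 3 correlated best with the Mtg16-/- library of the same number, and WT replicate 2 with Mtg16-/- replicate 3 (0.198). Whether libraries of the same number shared a preparation was not tested, so the choice between the fits with and without the block is not settled here. The number of called genes over all tested genes, 4, was 0 without a filter, with median-ratio scaling, without the trend and at a threshold of 0.05, 1 with quantile normalization, 15 at a mean TPM of at least 5 and 20 with robust moderation. With each library left out it was between 0 and 20, with 20 without WT replicate 1, 1 without Mtg16-/- replicate 1, 2 without Mtg16-/- replicate 2 and 0 without Mtg16-/- replicate 3. The count of the 9 genes at an unadjusted p under 0.05 was between 2 and 9, and that without overlap between 4 and 9, with each library left out. The cause of these differences was not tested, other than fewer samples where a library was left out. The depth is unknown, so counting error could not be given for any gene.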
